A study of Schmidtea mediterranea with 58 samples.

Results

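Control wounds of the planarian *Schmidtea mediterranea* were compared between 6 and 16 h post amputation (hpa). The members are the 5 libraries at 6 hpa and the 5 libraries at 16 hpa from animals fed double-stranded RNA (dsRNA) of *unc-22*, a *Caenorhabditis elegans* muscle gene that serves as the control for RNA interference (RNAi). These 10 libraries were chosen by the treatment and time in their titles, out of 58 in the series. All animals were of the asexual strain CIW4 and received 8 dsRNA feedings in liver. Each library pooled anterior-facing wounds of post-pharyngeal (tail) fragments, 5 wounds to a replicate, so a replicate is a pool and not a single animal. The sources differ on how many days separated the last feeding from amputation. The series also holds control wounds at 0, 3, 24 and 48 hpa and *equinox* RNAi wounds at the same 6 times, which are used below only for comparison. Nothing in the sources says that replicates came from separate batches of animals, so p-values measure the spread between these pools.

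Planarians rebuild missing body parts from neoblasts, the dividing stem cells of the adult. Every injury first sets off a generic wound response, in which epidermal, muscle and stem cells switch on wound-induced genes and cell death rises near the cut. Wounds that remove much tissue then enter a longer phase, in which wound-induced expression persists, neoblasts gather at the wound and muscle cells reset position control genes (PCGs), the regionally expressed genes that mark body axes. The samples at 6 and 16 hpa fall on either side of that change. No reference sequence for these transcripts was at hand, so none is shown.

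Total counts ran from 4691615 to 10741852 per library at 6 hpa (median 6114295) and from 4785387 to 34695229 at 16 hpa (median 21872882), so the 6 hpa levels are the less precise. Replicate 5 at 6 hpa stood apart, with correlations of log2 level with the other 6 hpa libraries of 0.939 to 0.953, against 0.965 to 0.985 among the other 4. At 16 hpa the correlations lay between 0.963 and 0.993. No pair of replicates agreed within sampling noise (chi-square per degree of freedom from 5.62 to 39.9). Levels below are counts per 1000000 counts of a library (CPM) on a common scale over all 58 libraries, and fold changes are log2 of 16 over 6 hpa with the standard error (SE). A transcript was called when its adjusted p was under 0.05 by edgeR's quasi-likelihood test over all transcripts tested. Wounds were sequenced in bulk, so fewer cells of a type and less RNA per cell cannot be told apart.

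More transcripts were called lower than higher between 6 and 16 hpa. Of 15749 transcripts tested, 712 were called (4.52%), with 266 higher at 16 hpa (1.69%) and 446 lower (2.83%). The rises were modest, with a median log2 fold change of 0.73 and a largest value of 4.44. The falls had a median of -0.81 and reached -7.38. Log2 changes of 1 or more in size were seen in 74 of the rises (0.47%) and 161 of the falls (1.02%). The median over all transcripts tested was -0.01. Libraries of the 2 times did not overlap for 3.94% of transcripts with a higher level at 16 hpa and 2.56% with a lower level. By that measure, more rose than fell. Shares of 1.52% and 1.85% were called as well, so that 239 of the 266 rises called had separate libraries. Without replicate 5 at 6 hpa, 682 transcripts were higher and 910 lower, and all 266 rises and 443 of the 446 falls were called again. The total also moved by more than 1.5 times, to between 414 and 460, without replicate 3 at 6 hpa (459) or without replicate 1 (439), 2 (414) or 4 (460) at 16 hpa. No called transcript changed direction without any of the 10 libraries.

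**Figure D1:**
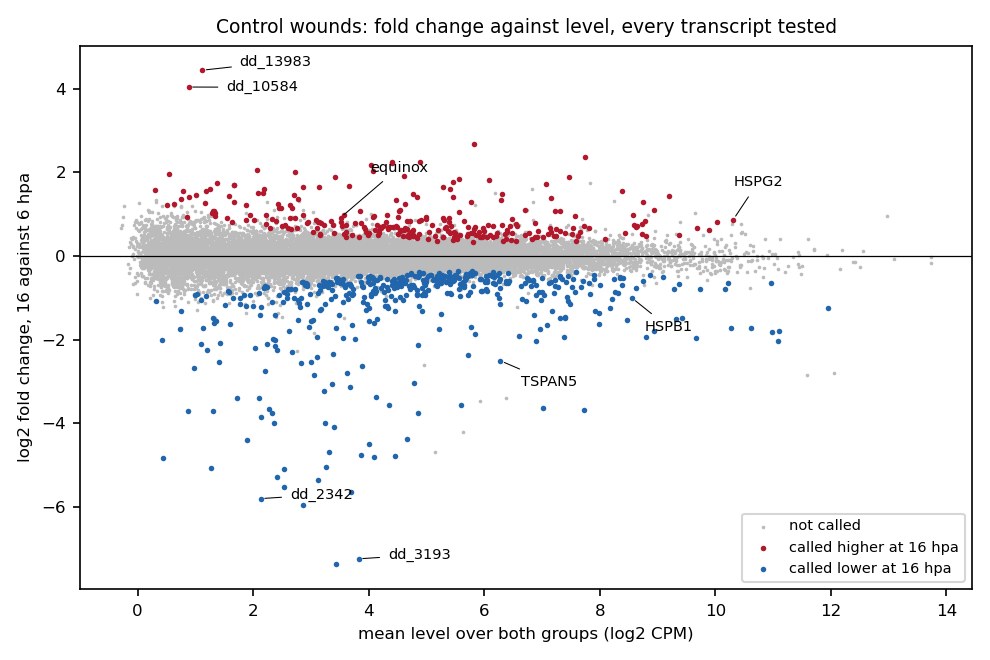
Log2 fold change between 16 and 6 hpa in control wounds (vertical axis) against mean level over both groups in log2 CPM (horizontal axis), 1 point per transcript tested. Red points are the 266 transcripts called higher at 16 hpa and blue points the 446 called lower; the falls reach -7.38 and the rises 4.44.

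*equinox* (dd_20318), which encodes a predicted secreted protein of the wound epidermis with thrombospondin and EGF-like domains, was higher at 16 hpa. Its levels in replicates 1 to 5 at 6 hpa were 8.29, 10.1, 3.08, 7.56 and 9.64 CPM. At 16 hpa they were 13.6, 14.8, 13, 14.7 and 19.7 CPM. Every 16 hpa library lay above every 6 hpa library, and replicate 3 at 6 hpa was the lowest. The log2 fold change was 0.92 (SE 0.23, adjusted p = 0.0388 by edgeR), and an exact two-sided permutation test of the 5 against 5 libraries gave p = 0.00794, the smallest it allows. The call was close to the threshold. It was lost without any 1 of the 16 hpa libraries and without replicate 1 or 4 at 6 hpa (adjusted p by edgeR up to 0.0873), and in the fit of all 58 libraries (adjusted p = 0.227 by edgeR). In the other control wounds, *equinox* lay at 4.27 to 7.56 CPM at 0 hpa, 4.10 to 5.89 CPM at 3 hpa, 7.52 to 14.2 CPM at 24 hpa and 5.08 to 8.12 CPM at 48 hpa. The median was highest at 16 hpa among the 6 control times, and the 16 and 24 hpa libraries overlapped.

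*bmp4* (dd_17402), the dorsal-ventral patterning ligand on which wound expression of *equinox* depends, had low levels. They were 2.62, 1.98, 1.08, 0.889 and 1.85 CPM in replicates 1 to 5 at 6 hpa and 2.99, 3.22, 3.34, 3.18 and 2.72 CPM at 16 hpa. Its libraries did not overlap, yet it was not called (0.78, SE 0.25, adjusted p = 0.0967 by edgeR). The fit of all 58 libraries did call it (adjusted p = 0.0151 by edgeR). At 0 hpa *bmp4* lay at 2.23 to 3.23 CPM, which overlapped its 16 hpa levels. Teneurin (dd_5439), a membrane protein of cell-cell contacts, ranged from 178.8 to 377 CPM at 6 hpa and from 281 to 346 CPM at 16 hpa. It was not called (0.34, SE 0.18, adjusted p = 0.316 by edgeR), and its highest 6 hpa value came from replicate 5. Without that library it passed the threshold (0.56, adjusted p = 0.00708 by edgeR).

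Posterior PCGs are expressed toward the tail tip, and 1 of the 2 that an earlier account of these data numbered as such rose. Their identity was taken from that account and was not checked here. Libraries of both were separate, beside 3.94% of all transcripts. dd_13735 lay at 10.5, 12.2, 10.6, 6.44 and 16.9 CPM in replicates 1 to 5 at 6 hpa and at 20.6, 25.6, 18, 21.9 and 27.0 CPM at 16 hpa. It rose by 0.95 on the log2 scale (SE 0.19, adjusted p = 0.0124 by edgeR), with the call held in each of the 10 fits without 1 library. The rise did not last. In libraries that take no part in this contrast, dd_13735 lay at 13.9 to 19.1 CPM at 24 hpa and at 3.82 to 4.88 CPM at 48 hpa, a fall of -1.89 between those times (SE 0.14, adjusted p = 1.05e-05 by edgeR). dd_9831 was not called. It lay at 47.9 to 57.6 CPM at 6 hpa and 62.7 to 69.9 CPM at 16 hpa (0.27, SE 0.09, adjusted p = 0.137 by edgeR), and only DESeq2 and the fit of all 58 libraries called it.

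Early wound-induced transcripts were followed across the interval. An earlier account of these data numbered 6 transcripts among wound-induced genes. All 6 had risen between 0 and 3 hpa, by 0.58 to 2.20 on the log2 scale (4.85% of all transcripts rose). They were chosen by that label, so their rise at 3 hpa follows from the choice and is not a result. None of the 6 passed the test between 6 and 16 hpa by edgeR (4.52% of all transcripts). The steepest of them, dd_4392, lay at 154.2, 145.05, 244, 156 and 152 CPM at 6 hpa and at 138.8, 137.1, 163, 121.5 and 114.3 CPM at 16 hpa. Its groups overlapped (-0.37, SE 0.16, adjusted p = 0.228 by edgeR), and replicate 3 at 6 hpa was the highest. At 24 hpa dd_4392 lay at 42.0 to 51.7 CPM, below every 16 hpa library, against 53.9 to 70.0 CPM at 0 hpa. It fell further between 24 and 48 hpa, by -0.67 (SE 0.12, adjusted p = 0.00656 by edgeR). The log2 fold changes of the others were -0.25 for dd_7293, -0.11 for dd_10393, -0.01 for dd_10923, 0.03 for dd_9416 and 0.06 for dd_9490, with adjusted p by edgeR from 0.239 to 0.995. dd_10393 matched human LRFN5, a leucine-rich-repeat adhesion protein of synapses. The signs of dd_10923 and dd_9416 turned in some fits without 1 library.

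The 8 mitochondrially encoded transcripts that the methods number all had negative values, from -0.47 (dd_292, SE 0.20) to -0.18 (dd_505, SE 0.21). Among all transcripts tested, 48.4% of values were positive, and the agreement in sign of the 8 was not tested. None of the 8 was called (adjusted p by edgeR from 0.132 to 0.682), and the libraries of each overlapped. In *equinox* RNAi wounds over the same interval all 8 values were positive, from 0.11 (dd_505) to 0.35 (dd_753). None was called there, nor was any difference between the treatments.

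**Figure D2:**
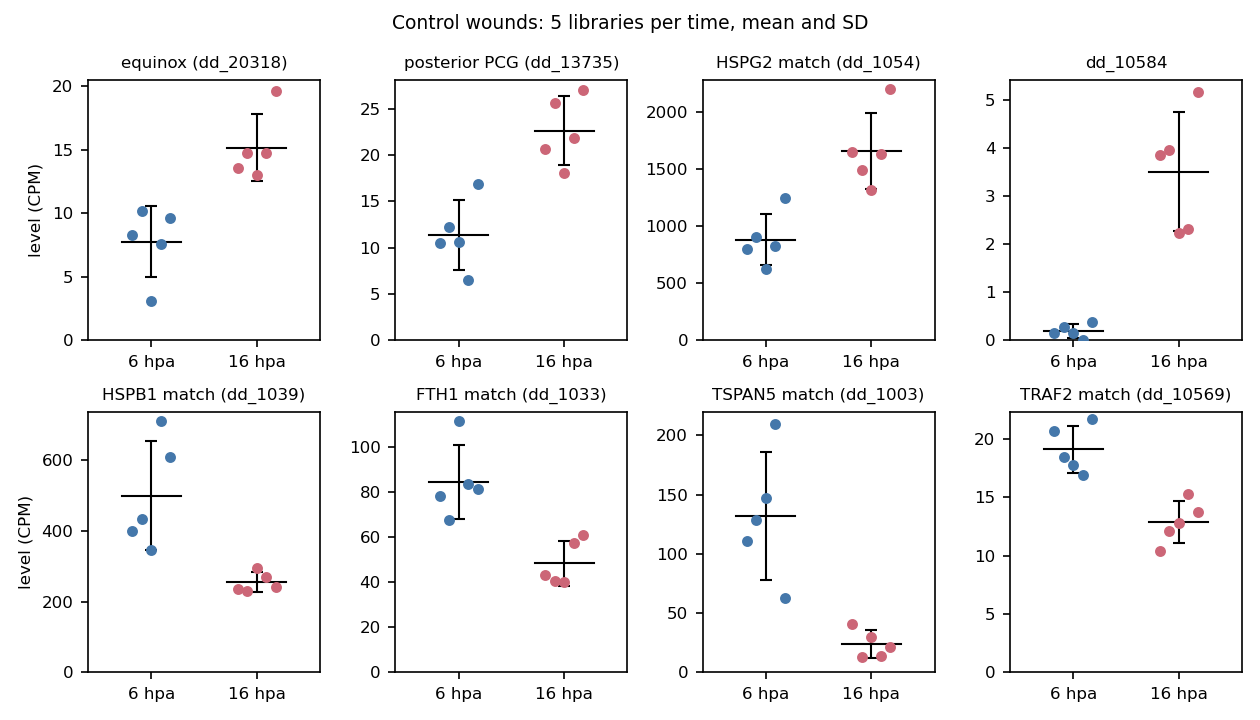
Levels in CPM of 8 transcripts in the 5 control libraries at 6 hpa (blue) and the 5 at 16 hpa (red); bars give the mean and SD, and every vertical axis starts at 0. The 16 hpa libraries of *equinox*, dd_13735, dd_10584 and the HSPG2 match all lie above those of 6 hpa, and those of the HSPB1, FTH1, TSPAN5 and TRAF2 matches all lie below.

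The 2 largest rises with separate libraries began from almost no reads. dd_13983 lay at 0.0898 to 0.444 CPM at 6 hpa, which is 6 reads over the 5 libraries, and at 5.81, 2.69, 3.90, 2.58 and 5.72 CPM in replicates 1 to 5 at 16 hpa. Its log2 fold change was 4.44 (SE 0.48, adjusted p = 0.000246 by edgeR). At 24 and 48 hpa it remained detectable, at 1.0 to 8.4 CPM and 1.48 to 4.01 CPM, with no call between those times (-0.04, adjusted p = 0.982 by edgeR). dd_10584, whose open reading frame carries a 7-transmembrane domain (Pfam 7TMR-DISM_7TM), lay at 0 to 0.371 CPM at 6 hpa (7 reads in all) and at 3.86, 3.96, 2.23, 2.32 and 5.16 CPM at 16 hpa. Its log2 fold change was 4.04 (SE 0.44, adjusted p = 0.000261 by edgeR). It went on rising, from 5.72 to 13.9 CPM at 24 hpa to 33.1 to 45.0 CPM at 48 hpa, by 2.20 between those times (SE 0.23, adjusted p = 0.000164 by edgeR). The names of both are not given in the annotation used here.

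The rises among human matches included HSPG2, UNC5B, UNC5D and SOX5. Gene names are best human protein matches, given by the study's annotation, which was held for 763 of the transcripts tested. Of these, 39 were called (5.11%, beside 4.52% of all transcripts), 11 higher and 28 lower. A human match was given for 560, of which 7 rose and 20 fell. Another table of the study pairs transcript numbers with names in a different order and was not used, so names rest on the table chosen.

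The match of HSPG2 (dd_1054), perlecan, the heparan sulfate proteoglycan of basement membranes, was the most abundant. It lay at 804, 907, 629, 828 and 1245 CPM in replicates 1 to 5 at 6 hpa and at 1655, 1495, 1316, 1634 and 2207 CPM at 16 hpa. It rose by 0.87 (SE 0.18, adjusted p = 0.0124 by edgeR). The level then stayed near that of 16 hpa, at 1717 to 2192 CPM at 24 hpa and 1511 to 2091 CPM at 48 hpa, against 632 to 750 CPM at 0 hpa. The matches of UNC5D (dd_10585) and UNC5B (dd_10380), receptors for the axon guidance cue netrin, also rose. UNC5D lay at 36 to 49.5 CPM at 6 hpa and 50.9 to 69.4 CPM at 16 hpa (0.52, SE 0.11, adjusted p = 0.0138 by edgeR). UNC5B lay at 43.7 to 58.9 CPM at 6 hpa and 70.0 to 74.4 CPM at 16 hpa (0.46, SE 0.10, adjusted p = 0.0219 by edgeR). At 0 hpa UNC5D lay at 46.7 to 59.4 CPM and UNC5B at 61.3 to 81.1 CPM, so that both overlapped their 16 hpa levels.

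The match of SOX5 (dd_10201), an HMG-box transcription factor, lay at 17.8 to 25 CPM at 6 hpa and 26.0 to 37.2 CPM at 16 hpa (0.56, SE 0.12, adjusted p = 0.02 by edgeR). At 0 hpa SOX5 lay at 25.1 to 29.0 CPM, which overlapped its 16 hpa levels. It rose again between 24 and 48 hpa (0.38, SE 0.08, adjusted p = 0.0264 by edgeR). The matches of the zinc finger proteins ZC3H6 (dd_10815) and ZNF486 (dd_10260) rose by 0.80 (SE 0.15, adjusted p = 0.00631 by edgeR) and 0.46 (SE 0.12, adjusted p = 0.0469 by edgeR). The match of CCDC170 (dd_10140), a coiled-coil protein, rose by 0.62 (SE 0.16, adjusted p = 0.0431 by edgeR). Calls of HSPG2, UNC5D and ZC3H6 held in each fit without 1 library. That of SOX5 was lost without replicate 1 at 16 hpa or replicate 3 or 4 at 6 hpa (adjusted p by edgeR up to 0.0684). That of CCDC170 was lost without any 1 of the 16 hpa libraries and without replicate 1, 3 or 4 at 6 hpa (up to 0.112). That of ZNF486 was lost without replicate 1, 2 or 4 at 16 hpa or 1, 2, 3 or 4 at 6 hpa (up to 0.132). That of UNC5B was lost without replicate 1, 2, 3 or 4 at 16 hpa or 1, 2 or 4 at 6 hpa (up to 0.0604).

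The falls among human matches included HSPB1, FTH1, TRAF2 and SLC10A2. The match of HSPB1 (dd_1039), a small heat shock protein that holds unfolded proteins, lay at 399, 434, 346, 712 and 609 CPM in replicates 1 to 5 at 6 hpa and at 236, 231, 296.5, 271 and 241 CPM at 16 hpa. It fell by 1.01 on the log2 scale (SE 0.18, adjusted p = 0.00642 by edgeR). In control wounds at 0 and 3 hpa it lay at 360 to 569 CPM and 299 to 415 CPM, so each 16 hpa library was below every library of the earlier times. The match of FTH1 (dd_1033), ferritin heavy chain, which stores iron, lay at 78.1, 67.7, 111.7, 83.6 and 81.2 CPM at 6 hpa and at 43.1, 40.4, 40.1, 57.3 and 60.9 CPM at 16 hpa (-0.85, SE 0.15, adjusted p = 0.00623 by edgeR). This fall was transient, since FTH1 rose by 1.57 between 24 and 48 hpa (SE 0.22, adjusted p = 0.00182 by edgeR), to 104.5 to 219 CPM.

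The match of TRAF2 (dd_10569), an adaptor of tumor necrosis factor receptors, had risen by 1.12 between 0 and 3 hpa (SE 0.13, adjusted p = 2.18e-05 by edgeR). It lay at 20.7, 18.4, 17.7, 16.9 and 21.7 CPM at 6 hpa and at 10.4, 12.1, 12.8, 15.2 and 13.7 CPM at 16 hpa. The groups were separate and the fall was -0.61 (SE 0.13, adjusted p = 0.0136 by edgeR). At 24 and 48 hpa TRAF2 lay at 9.37 to 12.8 CPM and 8.37 to 12.5 CPM, against 5.51 to 8.72 CPM at 0 hpa. The match of SLC10A2 (dd_10199), a sodium-coupled bile acid transporter in human, likewise rose at 3 hpa (0.65, adjusted p = 0.000188 by edgeR) and then fell, from 21.0 to 38.2 CPM at 6 hpa to 8.37 to 15.1 CPM at 16 hpa (-1.24, SE 0.19, adjusted p = 0.00237 by edgeR).

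The largest fall among human matches was that of TSPAN5 (dd_1003), a tetraspanin of the cell surface. It lay at 110.6, 129, 147, 209.6 and 62.7 CPM at 6 hpa and at 40.8, 13.3, 30.3, 13.7 and 21.3 CPM at 16 hpa (-2.51, SE 0.38, adjusted p = 0.003 by edgeR). Replicate 5 was the lowest at 6 hpa and still above each 16 hpa library. TSPAN5 was also lower at 48 than at 24 hpa (-2.61, SE 0.51, adjusted p = 0.0283 by edgeR). It is among the steepest falls described below. As a set, these varied between libraries of the same time and were higher at 24 than at 16 hpa. The match of MUC5B (dd_10746), a gel-forming mucin, had few reads, at 1.89 to 6.93 CPM and 0.557 to 1.32 CPM (-1.73, SE 0.35, adjusted p = 0.0112 by edgeR), and was not called in the fit of all 58 libraries (adjusted p = 0.0975 by edgeR). The match of FOXRED1 (dd_10791), an assembly factor of mitochondrial complex I in human, lay at 8.44 to 18.2 CPM and 2.79 to 5.16 CPM (-1.54, SE 0.21, adjusted p = 0.00135 by edgeR). Like FTH1 it rose between 24 and 48 hpa (0.97, SE 0.21, adjusted p = 0.0252 by edgeR).

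The match of STRA6 (dd_10051), the receptor for retinol-binding protein, fell by -0.95 (SE 0.16), and that of SLC47A2 (dd_10595), a multidrug exporter, fell by -0.94 (SE 0.14). The match of SYNJ1 (dd_1019), a phosphoinositide phosphatase of synaptic vesicle recycling, fell by -0.71 (SE 0.13). Adjusted p by edgeR for these 3 lay between 0.00168 and 0.00673, and each call held in all 10 fits without 1 library. The 4 called matches that the choice of names left out, TCAF2, SLC8B1, SORD and MFSD8, fell by -0.76 to -0.55 and are named here after their values were seen. The other 12 called transcripts with annotation had no human match; 4 were higher, including dd_10584, and 8 lower.

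In gene lists assembled by human match, at most 2 members were called in any list, and 13 of 227 in all. Among all transcripts 4.52% were called, 1.69% higher and 2.83% lower. No member passed the test among 19 transcripts of ribosome biogenesis, 14 of translation, 20 of cell cycle and genome maintenance, 16 of nuclear-encoded mitochondrial proteins or 10 of splicing. At an unadjusted p under 0.05 by edgeR there were 2, 2, 2, 0 and 2, DESeq2 called none, the fit of all 58 libraries called 2, 0, 2, 0 and 1, and the fit without replicate 5 at 6 hpa called 1, 1, 0, 0 and 0. Their median log2 fold changes were -0.11, 0.08, 0.00, -0.15 and 0.10, beside -0.01 over all transcripts tested. Chaperones and the secretory pathway had 1 of 11 lower (HSPB1) and all 11 values negative, beside 48.4% positive among all transcripts. This agreement in sign was not tested. TRAF, death and survival signaling had 1 of 17 lower (TRAF2), with a median of -0.16.

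Signaling ligands, receptors and inhibitors had 2 of 21 higher, UNC5B and UNC5D (1.69% of all transcripts were higher). Transcription factors had 1 of 15 higher, SOX5, and 14 of the 15 values were positive (median 0.22), beside 48.4% positive among all transcripts. The extracellular matrix list split, with HSPG2 higher and the match of LOXL2 (dd_10591), an enzyme that crosslinks collagen, lower by -0.72 (SE 0.18, adjusted p = 0.0363 by edgeR) among 11. LOXL2 lay at 11.3 to 20 CPM at 6 hpa and 6.32 to 12.1 CPM at 16 hpa, and the groups overlapped. Its call held only without replicate 5 at 6 or at 16 hpa (adjusted p by edgeR up to 0.11).

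Lists of differentiated cell types had at most 2 called members each, beside 1.69% higher and 2.83% lower among all transcripts. Neurons had 2 of 25 lower, the matches of the metabotropic glutamate receptor GRM3 (dd_10130, -0.90, SE 0.18, adjusted p = 0.0109 by edgeR) and of the potassium channel KCNQ1 (dd_10387, -0.50, SE 0.12, adjusted p = 0.0238 by edgeR), with a list median of 0.00. Muscle had 1 of 10 lower, the match of the Z-disc protein LDB3 (dd_10318, -0.62, SE 0.15, adjusted p = 0.0269 by edgeR), with a median of 0.13. Cilia and centrioles had 1 of 29 higher, CCDC170, with a median of 0.10. Phagocytic and lysosomal genes had 2 of 9 lower, FTH1 and the match of the lysosomal alpha-glucosidase GAA (dd_1062, -0.60, SE 0.13, adjusted p = 0.0149 by edgeR), with a median of -0.26. KCNQ1 lost its call without replicate 2, 3 or 4 at 16 hpa or replicate 1 or 4 at 6 hpa, LDB3 without those or replicate 1 at 16 hpa, and GAA without replicate 2 at 16 hpa (adjusted p by edgeR up to 0.076, 0.0832 and 0.0516 in turn). KCNQ1 and LDB3 were also not called without a filter on low counts (adjusted p by edgeR 0.0688 and 0.0605).

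Every tested member of these 4 marker lists had reads at both times. Members were tested only if they passed the filter on low counts, so this follows in part from the filter. The summed level ran from 648 to 782 CPM at 6 hpa and 618 to 804 CPM at 16 hpa for neurons, from 520 to 975 and 709 to 883 CPM for muscle, and from 510 to 776 and 685 to 795 CPM for cilia and centrioles. These ranges overlapped. For phagocytic and lysosomal genes they were 881 to 1044 CPM at 6 hpa and 608 to 855 CPM at 16 hpa, which did not. Without FTH1 and GAA, the other 7 summed to 337 to 393 CPM and 306 to 391 CPM, which overlapped. The part of cell composition in the calls was not tested. Without replicate 5 at 6 hpa, 4 of 29 cilia and centriole members were called higher, as were 4 of 21 signaling members, 3 of 11 matrix members and 2 of 15 transcription factors, and 2 of 11 chaperone and secretory members were lower, beside 4.1% of all transcripts higher and 5.47% lower in that fit. In the fit of all 58 libraries (5.79% higher and 6.23% lower), 6 cilia and centriole members were higher, and 3 phagocytic and lysosomal members were lower and 1 higher.

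**Figure D3:**
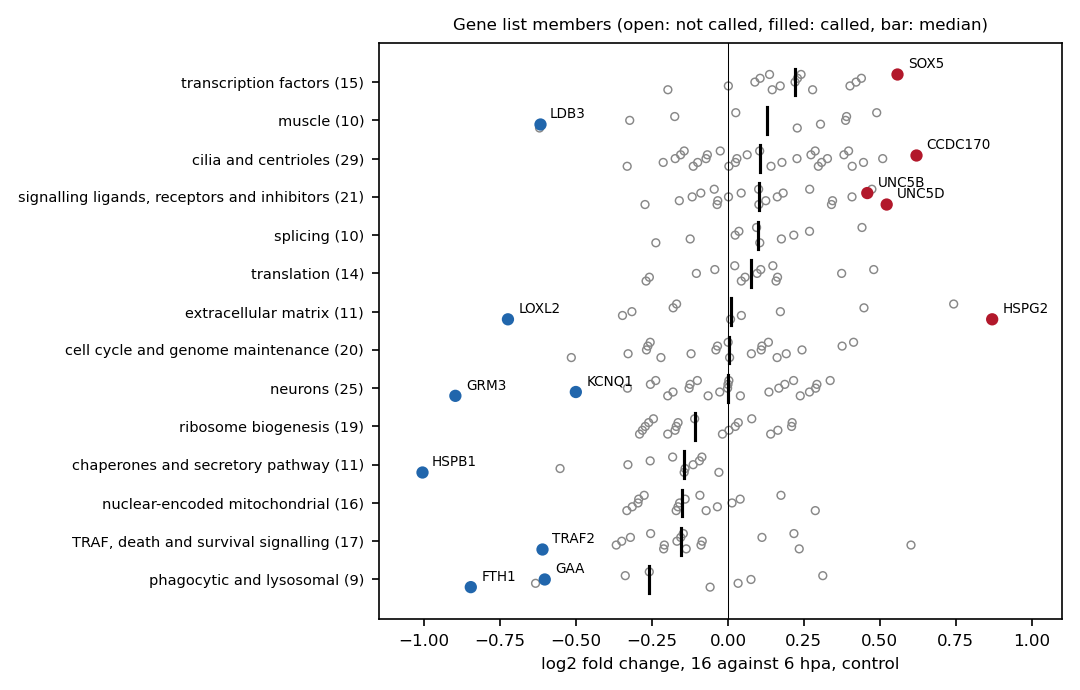
Log2 fold change between 16 and 6 hpa in control wounds (horizontal axis) of each tested member of 14 gene lists, ordered by list median (black bar), with the number tested in parentheses. Open points were not called; filled points were called higher (red) or lower (blue) and carry the human match, at most 2 in any list.

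The steepest falls formed a group of transcripts that varied together. Of the 446 called lower, 64 fell by 2 or more on the log2 scale, with a median of -3.48. The 2 with the largest fall among those with separate libraries were dd_3193 and dd_2342, neither of which is named in the annotation used here. dd_3193 lay at 40.9, 25.1, 53.0, 15.1 and 7.23 CPM in replicates 1 to 5 at 6 hpa and at no more than 0.267 CPM in any 16 hpa library (-7.24, SE 0.61, adjusted p = 6.57e-05 by edgeR). dd_2342 lay at 12.4, 5.57, 17.6, 5.56 and 2.04 CPM at 6 hpa and at no more than 0.349 CPM at 16 hpa (-5.80, SE 0.61, adjusted p = 0.000246 by edgeR). In both, replicate 5 was the lowest of the 6 hpa libraries.

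Across the 48 libraries that take no part in the contrast, the median correlation of log2 level between pairs of these 64 transcripts was 0.78, against 0.44 between pairs of the other 382 falls and 0.35 between pairs of the rises. These are descriptions over libraries of both treatments and all other times. The mean log2 level of the 64, set relative to the control 0 hpa mean, was 2.38, 2.06, 2.65, 2.44 and -0.17 in replicates 1 to 5 at 6 hpa, and -0.93, -1.56, -0.98, -2.07 and -1.12 at 16 hpa. Replicate 5 at 6 hpa thus lay with the 0 hpa libraries (-0.76 to 1.0) and not with the other 4. At 3 hpa replicates 3 and 4 stood at 2.48 and 2.58 while the others stood between -0.56 and 0.11, so the 3 hpa libraries fell into high and low ones. At 24 hpa the level was back between -0.54 and 1.05, and at 48 hpa it lay between -2.35 and -1.52. Between 24 and 48 hpa, 58 of the 64 were tested, of which 42 were called lower (1.88% of all transcripts) and none higher.

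The other 382 falls were less variable. Their mean level lay between -0.15 and 0.25 at 6 hpa, between -0.82 and -0.61 at 16 hpa, between -0.71 and -0.51 at 24 hpa and between -1.03 and -0.80 at 48 hpa. The 266 rises lay between -0.23 and 0.03 at 6 hpa and between 0.76 and 0.96 at 16 hpa. In the later libraries, which did not choose them, they lay between 0.60 and 0.75 at 24 hpa and between 0.45 and 0.63 at 48 hpa, above every 0 hpa library (-0.06 to 0.10).

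**Figure D4:**
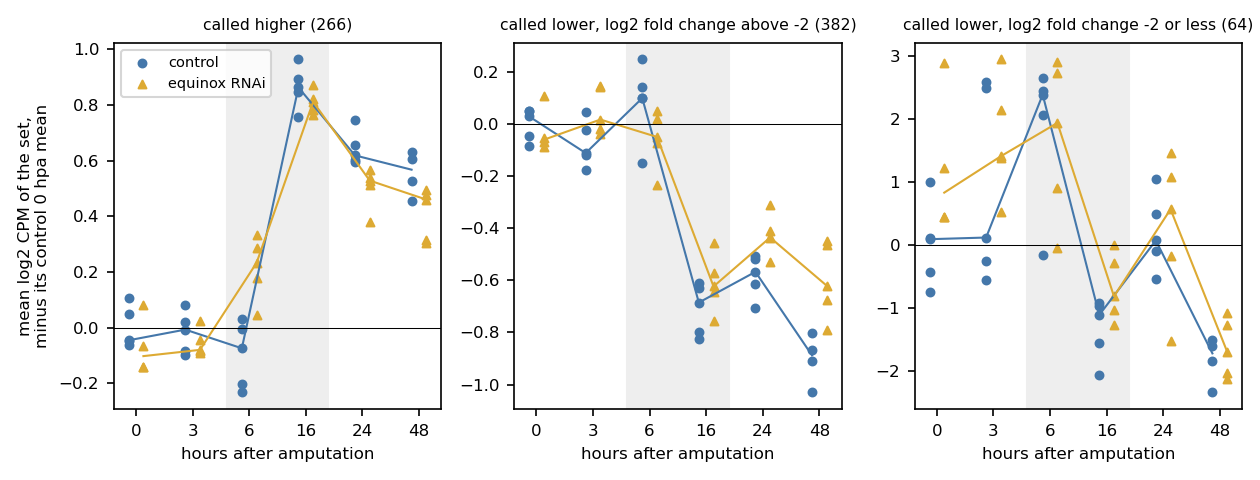
Mean log2 CPM of 3 sets of transcripts relative to their mean in control 0 hpa libraries (vertical axis) at 6 times after amputation (horizontal axis, evenly spaced and not to scale), 1 point per library, lines through the medians. The shaded times in control chose the sets; the 64 steepest falls (right) spread from -0.17 to 2.65 among control libraries at 6 hpa, and the 266 rises (left) stay above 0 at 24 and 48 hpa.

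The calls were followed into control comparisons that share no library with this one. Between 0 and 3 hpa, 11.1% of transcripts tested were called, with 4.85% rising and 6.27% falling. Of the 446 later falls, 91 had also fallen at 3 hpa (20.4% of these falls and 8.75% of those at 3 hpa), and 28 had risen (6.28% and 3.48%). All 91 were among the 382 less steep falls. Of the 266 later rises, 23 had risen at 3 hpa (8.65% and 2.86%) and 25 had fallen (9.40% and 2.40%). In the fit of all 58 libraries for both comparisons, 61 of the falls called there had also fallen at 3 hpa and 52 had risen. Between 24 and 48 hpa, 2.89% were called, with 1.01% rising and 1.88% falling. Of the 446 falls, 107 fell again (24.0% of these falls and 30.7% of those at 48 hpa) and 6 rose. Of the 266 rises, 16 rose again (6.02% and 8.51%) and 28 fell (10.5% and 8.05%). Without replicate 5 at 6 hpa, the falls that had also fallen at 3 hpa numbered 153 and those that had risen 49, the rises that had risen at 3 hpa numbered 36 and those that had fallen 56, and of the rises 46 fell and of the falls 10 rose between 24 and 48 hpa.

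*equinox* RNAi wounds gave a second view of the same interval in libraries of their own. Of 17906 transcripts tested there, 697 were called (3.89%), of which 300 rose (1.68%) and 397 fell (2.22%). Of the 266 control rises, 134 also rose (50.4% of the control rises and 44.7% of those in *equinox* RNAi), and of the 446 control falls, 198 also fell (44.4% and 49.9%). No transcript was called in opposite directions. Median log2 fold changes of the control rises were 0.73 in control and 0.47 in *equinox* RNAi, and those of the falls were -0.81 and -0.57. The control libraries chose these transcripts, so the smaller medians are a description. At 16 hpa the mean log2 level of the rises, relative to the control 0 hpa mean, was 0.76 to 0.87 in *equinox* RNAi and 0.76 to 0.96 in control. At 6 hpa it was 0.04 to 0.33 in *equinox* RNAi, above the -0.23 to 0.03 of the control libraries that chose the set. For the falls, the ranges of the 2 treatments overlapped at both times. HSPB1 fell by -1.12 and FTH1 by -0.81 in *equinox* RNAi, TRAF2 by -0.75, and HSPG2 rose by 0.62 (adjusted p by edgeR from 0.000281 to 0.0129). ZC3H6 (0.17), CCDC170 (0.16), ZNF486 (0.15) and TSPAN5 (-1.46) were not called there (adjusted p by edgeR from 0.197 to 0.513).

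A test of the difference in change between the treatments called none of 18430 transcripts by edgeR. At an unadjusted p under 0.05 there were 1181 (6.41%), and the smallest adjusted p was 0.764. DESeq2 and the fit of all 58 libraries each called 1, dd_8169, which fell by -0.63 in control (adjusted p = 0.00499 by edgeR) and whose difference was 0.60 (adjusted p = 0.764 by edgeR). The absence of calls by edgeR does not show that the treatments act alike. For *equinox* itself, the target of the RNAi, levels in the RNAi wounds were 1.6 to 4.08 CPM at 6 hpa and 1.89 to 3.64 CPM at 16 hpa, below the control libraries at 16 hpa and overlapping them at 6 hpa. At 0 and 3 hpa they ran from 2.84 to 39.6 CPM and from 1.78 to 33.1 CPM, against at most 7.56 and 5.89 CPM in control. The source of these reads was not tested. In the RNAi wounds the log2 fold change of *equinox* between 6 and 16 hpa was 0.02 (SE 0.27, adjusted p = 0.985 by edgeR), and the difference from control was -0.90 (SE 0.37, adjusted p = 0.764 by edgeR). Replicate 1 of the *equinox* RNAi wounds carried a time field that differed from its title, and without both such libraries the test of the difference again called none.

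**Figure D5:**
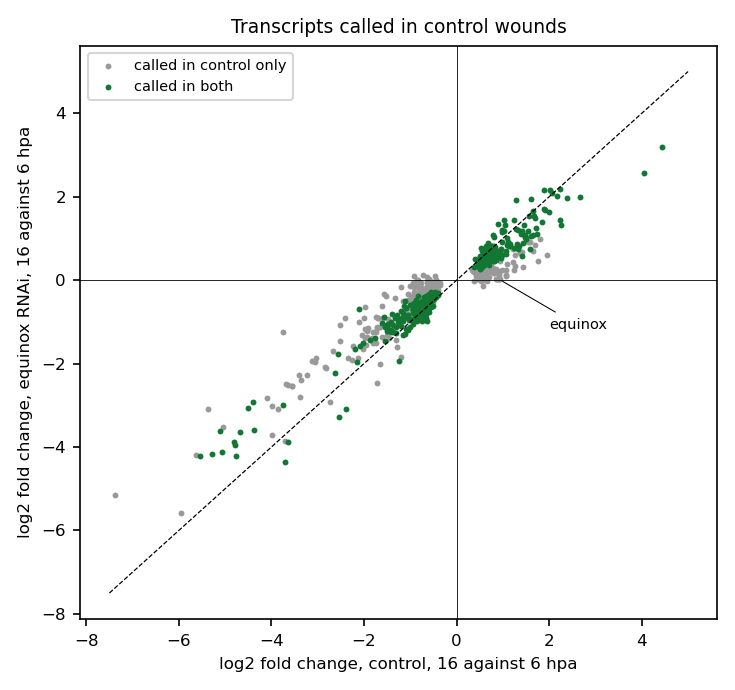
Log2 fold change between 16 and 6 hpa in *equinox* RNAi wounds (vertical axis) against that in control wounds (horizontal axis) for the transcripts called in control and tested in both; the dashed line marks equal change. Green points, the 134 rises and 198 falls called in both, lie in the same direction, and *equinox* lies near 0 on the vertical axis.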

How the data were processed

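RNA was polyA-selected, prepared with a Kapa kit and sequenced as 50-base reads. The authors deposited raw counts for 28742 transcripts of the dd_Smed_v6 transcriptome, made by mapping with bowtie, counting with coverageBed and summing isotigs. The submitters' processing notes list cutadapt 1.8, Bowtie 1.2, SAMtools 1.6 and DESeq. Transcripts of close sequence may share reads.

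Counts were tested with edgeR 4.0.16 (quasi-likelihood, robust) in R 4.3.3 with TMM factors, filterByExpr (minimum count 10) and Benjamini-Hochberg adjustment at 0.05, in the libraries compared. CPM used TMM factors over all 58 libraries (log2 with prior count 2). Alternatives were RLE factors, no filter, DESeq2 1.42.0, all libraries in the fit, a replicate block, fits without 1 library and a fold change minimum. The test was tested on simulated data. Members and gene lists were chosen with earlier results of these data known. Named transcripts were those numbered by the study or an earlier account of these data, the 2 largest rises and 2 largest falls past the threshold whose groups were separate and averaged 10 counts or more in either group, the 12 largest of each direction among human matches under the same conditions, and called list members. The annotation was held in part (1200 transcripts), so no enrichment was tested. A result of 1 named transcript is not reported here.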

Additional observations from a re-analysis of the deposited data

Results flagged for a closer look

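In 6 of 92 groups of 5 libraries (the named transcripts at 6 and 16 hpa in control), 1 library lay far from the others by Dixon's criterion on log2 CPM. Chance gives about 1 in 20 such groups. The libraries numbered 3 at 6 and at 16 hpa held 5 of the 6 between them. They are different libraries, and the sources do not say whether the numbers pair them. Replicate 3 at 6 hpa was low for *equinox* (dd_20318, 3.08 CPM) and KCNQ1 (dd_10387, 27.9 CPM) and high for dd_4392 (244 CPM). Replicate 3 at 16 hpa was high for the mitochondrial transcript dd_753 (306 CPM) and low for UNC5D (dd_10585, 50.9 CPM). It was also the shallowest 16 hpa library, with 4785387 counts. Replicate 5 at 6 hpa was low for STRA6 (dd_10051, 14.3 CPM).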

How the results depend on the processing

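The 712 calls became 1295 with DESeq2, 2421 in the fit of all 58 libraries, 2184 with a replicate block and 235 with an absolute log2 fold change of at least 1. Without 1 library they ranged from 414 to 1592. DESeq2 called all 266 rises and 445 of the 446 falls again. Under RLE factors, without a filter and in the other fits no called transcript changed sign. Without a filter, 232 of the 266 rises and 306 of the 446 falls were called again. Same-numbered libraries at 6 and 16 hpa correlated in their deviations by 0.02 (replicate 1), 0.46, 0.48, 0.27 and 0.50. Of the 10 libraries, 7 correlated best with their own number. The sources do not say whether the numbers pair the samples, and these correlations cannot settle it. The main test takes no account of the numbers, and the block is a hint from the data. In the replicate block fit, 265 of the 266 rises and 418 of the 446 falls were called again. It also called dd_4392 (adjusted p = 0.0206 by edgeR) and the mitochondrial dd_292 (0.0161), dd_344 (0.0277) and dd_753 (0.0223), all lower. Teneurin was called higher (adjusted p = 0.0499 by edgeR). That fit called 6.37% of all transcripts higher and 7.5% lower. In the lists, 1 member each of ribosome biogenesis and translation was lower, and 1 each of cell cycle and splicing was higher. Cilia and centrioles had 4 of 29 higher, signaling 4 of 21 and transcription factors 3 of 15. Phagocytic and lysosomal genes had 3 of 9 lower and 1 higher, and matrix genes 2 lower and 2 higher. Neurons had 2 lower and 1 higher, muscle 1 of each, chaperones 2 lower and the TRAF list 1 lower. Of the later falls with a replicate block, 263 had fallen at 3 hpa and 109 had risen.

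For the test of the difference between treatments, DESeq2 and all 58 libraries called 1 and fits without 1 library called 0 to 0. Counts for *equinox* RNAi were 697, 1190 with DESeq2 and 436 to 790 without 1 library (462, 436 and 448 without replicate 1, 3 and 4 at 16 hpa). For 3 against 0 hpa they were 1845, 639 with all libraries, 2851 with a replicate block and 1039 to 2141 without 1 library (1141 without replicate 5 at 0 hpa, 1039 and 1144 without 2 and 4 at 3 hpa). For 48 against 24 hpa they were 536, 1021 with DESeq2, 1133 with all libraries, 219 with a replicate block and 298 to 452 without 1 library (334, 354 and 343 without replicate 1, 3 and 4 at 24 hpa and 298 without 2 at 48 hpa). Alternatives for these 3 comparisons were chosen after seeing the data. dd_10923 (-0.01) turned to 0.0323 without a filter, 0.0799 with a replicate block and -0.16 to 0.27 without 1 library, and dd_9416 (0.03) ranged from -0.0497 to 0.14 without 1 library. The causes were not tested. Depth at 6 hpa limits transcripts of a few CPM.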
